A study of Mus musculus with 8 samples.

Results

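The major urinary protein (Mup) genes described here are Mup1, Mup2, Mup3, Mup7, Mup11, Mup12, Mup17, Mup20, Mup21 and the pseudogene Mup-ps20. They are 10 of the 38 rows of the family in a table of 19267 genes and were taken by symbol, in all 8 libraries. They had been chosen because the counts of several of them collapsed upon alcohol feeding, so their differences between diets are given below as a description, with no test. Liver RNA was sequenced from male C57BL/6 mice at 9 weeks of age. Feeding lasted 21 days. Alcohol at 5% (w/v) was given to the EtOH groups in liquid food of the Lieber-DeCarli type, and maltose dextrin supplied the same calories to the pair-fed Control groups. Elf4-/- mice lacked the transcription factor gene Elf4 in the intestinal epithelium only, because Cre recombinase was driven by the Vil1 promoter, and the WT mice carried Cre too. Liver counts of Elf4 therefore do not check the deletion. The 4 groups (WT-EtOH, WT-Control, Elf4-/- EtOH and Elf4-/- Control) held 2 libraries each. No source states whether a library came from 1 animal, so p-values measure the spread between these libraries only.

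Major urinary proteins are small secreted lipocalins, barrel-shaped carriers of volatile ligands. Adult male hepatocytes make them in large amounts, release them into blood and lose them through the kidney into urine, where they hold pheromones and act as scent signals. Their transcription is known to follow pulsatile growth hormone, which acts through the receptor Ghr, the kinase Jak2 and the factor Stat5b, and to be higher in males than in females. Mup20 encodes darcin, a male pheromone in its own right, and Mup1 has been studied as a circulating regulator of glucose and lipid metabolism.

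The family lies in 1 cluster on chromosome 4, where GENCODE M21 (GRCm38, the assembly behind mm10) lists 48 Mup genes between 59956804 and 62150863, a span of 2194 kb. Of these, 10 were not among the rows used here, namely Mup4, Mup5 and 8 pseudogenes. All 10 members lie on the minus strand. In order along the chromosome they are Mup7 (chr4:60066469-60070475), Mup2 (chr4:60135932-60154289), Mup1 (chr4:60498012-60501960), Mup11 (chr4:60658466-60662411), Mup12 (chr4:60737383-60741326), Mup17 (chr4:61591929-61595871), Mup-ps20 (chr4:62012412-62014857), Mup20 (chr4:62050234-62054158), Mup3 (chr4:62083476-62087342) and Mup21 (chr4:62147932-62150863). Each is annotated as protein coding except Mup-ps20, an unprocessed pseudogene. None overlaps another GENCODE gene, but the RefSeq span of Mup20 covers Mup-ps20, so reads of these genes could be assigned differently under that annotation.

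The protein-coding members fall into a set of near-identical copies and a set of diverged ones. Among Mup1, Mup2, Mup7, Mup11, Mup12 and Mup17, the 15 pairs of coding sequences were 98.3% to 99.6% identical (median 98.9%). The 21 pairs that include Mup3, Mup20 or Mup21 were 82.3% to 94.7% identical (median 84.5%), and the closest of these pairs was Mup3 with Mup21. The same 90 bases of coding sequence, each within a single exon, are printed to show how little separates the first set. They are read 5′ to 3′ from GENCODE M21 transcripts, with GRCm38 positions on the minus strand, and capitals mark bases that differ from Mup17. Mup7 differs from Mup17 at 3 of these bases. Mup11, which is shown for Mup1, Mup2 and Mup12 as well because these 4 are identical here, differs at 2, Mup20 at 11, Mup3 at 23 and Mup21 at 24.
Mup17, chr4:61595237-61595326: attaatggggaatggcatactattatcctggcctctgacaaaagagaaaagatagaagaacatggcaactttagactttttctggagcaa
Mup7, chr4:60069777-60069866: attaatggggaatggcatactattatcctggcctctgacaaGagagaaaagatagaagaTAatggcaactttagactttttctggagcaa
Mup11, chr4:60661774-60661863: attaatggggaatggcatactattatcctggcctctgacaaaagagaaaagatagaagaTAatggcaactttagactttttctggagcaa
Mup20, chr4:62053524-62053613: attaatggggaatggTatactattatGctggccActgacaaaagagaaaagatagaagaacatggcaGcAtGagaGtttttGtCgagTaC
Mup3, chr4:62086844-62086933: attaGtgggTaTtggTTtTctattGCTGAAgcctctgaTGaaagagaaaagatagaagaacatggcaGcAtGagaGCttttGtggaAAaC
Mup21, chr4:62150239-62150328: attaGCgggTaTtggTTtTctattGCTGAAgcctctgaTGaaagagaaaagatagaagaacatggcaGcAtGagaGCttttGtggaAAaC

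**Figure D1:**
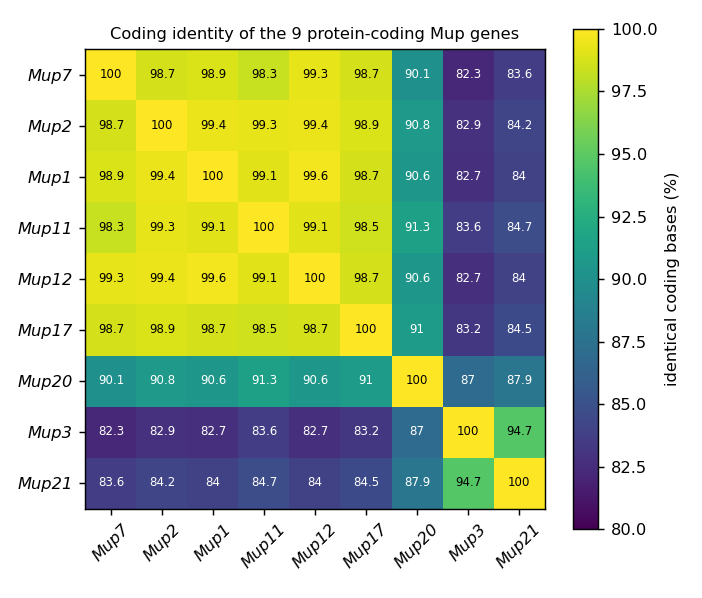
Share of identical coding bases (in percent, colour scale from 80 to 100) for each pair of the 9 protein-coding members, in their order along chromosome 4. The 6 genes from Mup7 to Mup17 form a block of at least 98.3%, whereas Mup20, Mup3 and Mup21 stand apart from it.

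This similarity bears on what a count means, because a read that matches several copies can be dropped or shared out in counting. Of all 150-base windows of their annotated transcripts, the length of 1 sequenced read, 100% occurred in no other gene for Mup3, Mup21 and Mup-ps20. The share was 68.9% for Mup20, 59.6% for Mup17, 47.5% for Mup1, 35.2% for Mup11, 32.9% for Mup7, 29.7% for Mup2 and 24.1% for Mup12. How reads with several possible genes were treated is not stated in the sources used here, so the levels of the near-identical copies relative to each other are uncertain. The values of Mup3, Mup21 and Mup-ps20 rest least on it, while reads dropped as ambiguous would be missing from the sum over the family too.

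Promoter sequence was read from RefSeq (GRCm38.p6) as the 250 bases before each annotated start, and 6 of the 10 members matched, without Mup1, Mup12, Mup20 and Mup-ps20. The windows of Mup7, Mup17 and Mup3 are printed because they include near-identical and diverged genes with a small (Mup3), a middle (Mup17) and the largest coding difference between diets (Mup7), all on the minus strand and 5′ to 3′. Capitals mark a run of 13 bases, ATTGCCAAGTTTG, found by searching for the longest stretch that all 6 windows share. Its presence in the 6 was therefore set by the search. It occurs in 12 of 32851 promoters (0.0365%), these 6 included.
Mup7, chr4:60070476-60070725: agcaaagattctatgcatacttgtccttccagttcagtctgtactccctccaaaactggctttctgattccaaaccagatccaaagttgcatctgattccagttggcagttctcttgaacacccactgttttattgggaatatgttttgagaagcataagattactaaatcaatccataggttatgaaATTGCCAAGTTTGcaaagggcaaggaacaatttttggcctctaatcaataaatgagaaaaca
Mup17, chr4:61595833-61596082: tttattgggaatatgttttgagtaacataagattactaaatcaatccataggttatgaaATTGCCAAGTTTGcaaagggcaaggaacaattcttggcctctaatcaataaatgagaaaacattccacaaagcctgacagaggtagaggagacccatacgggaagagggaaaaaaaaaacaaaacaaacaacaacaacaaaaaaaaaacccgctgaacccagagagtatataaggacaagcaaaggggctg
Mup3, chr4:62087318-62087567: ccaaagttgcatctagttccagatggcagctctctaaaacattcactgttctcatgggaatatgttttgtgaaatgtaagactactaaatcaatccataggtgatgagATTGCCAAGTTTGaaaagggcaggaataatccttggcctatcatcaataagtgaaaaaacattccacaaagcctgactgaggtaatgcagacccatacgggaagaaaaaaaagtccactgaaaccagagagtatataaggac
Where they aligned, the windows of Mup17 and Mup11 were 98.7% identical over 228 bases, those of Mup3 and Mup21 92.3% over 247 bases, and those of Mup17 and Mup3 87.1% over 170 bases. The annotated starts are not equivalent, since the shared run ends 50 bases before the start in Mup7 but 179 bases before it in Mup17. Motifs were searched on both strands of the 250 bases before the start, in the member windows and in all promoters. Bases after the start were not searched. TTCNNNGAA, the type of site that Stat5 binds, and TTGCNNAA, the type that C/EBP factors bind, were found in 0 of the 6 member windows and in 7.02% and 9.56% of all promoters. TATATAAG, a TATA-type sequence chosen after the windows were seen, was found in Mup2, Mup17, Mup3 and Mup21 and in 0.935% of all promoters. These matches describe letters in short windows and say nothing of where a factor binds.

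Library totals ran from 6171051 to 9157362 counts. The Elf4-/- EtOH replicates lay farthest apart. Over 7166 genes, replicates differed with an SD of 0.676 (log2) in Elf4-/- EtOH and 0.331 to 0.467 in the other groups, and results that rest on them are given without each where that moves them. Replicates differed by more than counting noise in every group, with a chi-square per degree of freedom of 9.2 to 38.1. Mitochondrially encoded genes held 28.6% ± 7.26 (SD, n = 2) of WT-Control counts, 11.7% ± 1.25 of WT-EtOH counts, 18.6% ± 0.176 of Elf4-/- Control counts and 20.2% ± 2.69 of Elf4-/- EtOH counts.

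All 38 Mup rows together made up 1.71% and 2.83% of each library's counts for WT-Control and 1.75% and 2.41% for Elf4-/- Control. The share was 0.424% and 0.343% in WT-EtOH and 0.0892% and 0.503% in Elf4-/- EtOH. Every library of EtOH-fed mice thus lay below every library of Control-fed mice, in both genotypes. The lowest share, in Elf4-/- EtOH replicate 1, rested on 5873 counts and had a 95% Wilson interval of 0.0869% to 0.0915%, which covers counting error only. The 10 members held 88.9% to 96.2% of the Mup counts in 7 libraries and 80.4% in Elf4-/- EtOH replicate 1. With the mitochondrial genes taken out of the total, the mean share was 3.14% under Control and 0.435% under EtOH in WT, and 2.55% and 0.365% in Elf4-/- mice.

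**Figure D2:**
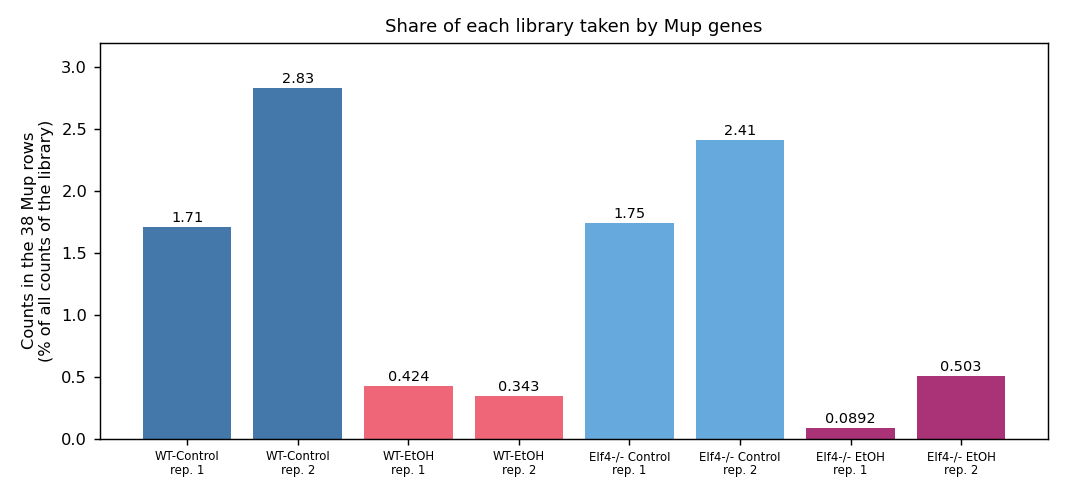
Counts in the 38 Mup rows as a percentage of all counts, one bar per library (rep., replicate), coloured by group. The 4 Control libraries sit between 1.71% and 2.83%, and the 4 EtOH libraries between 0.0892% and 0.503%.

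Hepatocyte identity was checked beside this, since fewer hepatocytes and less Mup RNA per hepatocyte cannot be told apart in whole liver. All 8 hepatocyte markers were detected in every group, and none was at 0. Levels are given in CPM, counts scaled with TMM factors to 1000000 per library. The hepatocyte markers summed to 52936 and 73811 CPM under Control and 42207 and 35444 under EtOH in WT, and to 64966 and 72953 against 44943 and 56106 in Elf4-/- mice. Summed markers of 3 other liver cell types were higher with EtOH in WT, going from 199 and 151 to 558 and 505 CPM for 6 Kupffer cell genes, from 78.9 and 46.0 to 231 and 280 for 6 endothelial genes, and from 67.3 and 26.9 to 247 and 326 for 5 stellate cell genes. In Elf4-/- mice the Kupffer sum was 142 and 139 CPM under Control and 199 and 189 under EtOH. The endothelial sum was 121 and 114 against 191 and 117, the stellate sum 119 and 90.1 against 315 and 195. The sum of 5 bile duct genes was lower with EtOH in WT, at 108 and 144 CPM under Control and 67.3 and 71.6 under EtOH, and was 182 and 72.0 against 67.7 and 95.5 CPM in Elf4-/- mice. The part of cell composition in the Mup values was not tested. Of the markers of salivary and lacrimal glands, which express Mup genes too, 3 of 5 were in the table, namely Bhlha15, Amy1 and Aqp5. Aqp5 was at 0 in both WT-Control libraries. The sum, which does not show what each gene held, was 130 and 126 CPM under Control and 113 and 115 under EtOH in WT. In Elf4-/- mice it was 111 and 135 against 133 and 122 CPM. Of 4 pancreatic acinar markers 1 was in the table, at 2.75 to 9.10 CPM.

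The diet comparison asked how the livers of each genotype differed after alcohol feeding. The whole family, summed, was at 20349 and 32162 CPM in WT-Control and at 3748 and 2884 CPM in WT-EtOH, a log2 fold change of −2.99 ± 0.67 (SE), or 7.92-fold lower. In Elf4-/- mice the sum was 16414 and 25256 CPM under Control and 935 and 4915 CPM under EtOH, a log2 fold change of −2.83 ± 0.67 (SE). The groups did not overlap in either genotype. Leaving out Elf4-/- EtOH replicate 1 gave −2.08 in Elf4-/- mice, and leaving out replicate 2 gave −4.49.

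Each of the 10 members was lower in both EtOH libraries than in both Control libraries, in WT and in Elf4-/- mice. Over all 13993 genes tested, 32.7% met this in WT and 26.3% in Elf4-/-. For each member the 4 EtOH libraries also lay below all 4 Control libraries, which 14% of all genes did. All 10 passed the filter on low counts, and the members were chosen on these contrasts, so nothing is read from these counts. The median log2 fold change of the members was −4.69 in WT and −4.45 in Elf4-/- with Mup-ps20 set at its counting ratio or bound (below), against 0.01 for all genes in both contrasts. The size of the difference varied widely among the coding members, from 3.42-fold for Mup2 to 154-fold for Mup7 in WT.

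Mup3, the most abundant member, was at 9730 and 10161 CPM in WT-Control and at 2523 and 2106 in WT-EtOH. In Elf4-/- mice it was at 7524 and 9516 CPM under Control and at 449 and 3614 under EtOH. The Control libraries and the WT-EtOH replicates lay close together, whereas the Elf4-/- EtOH replicates were 8.05-fold apart. The log2 fold change was −2.10 ± 0.72 (SE) in WT and −2.07 ± 0.71 in Elf4-/-, and leaving out replicate 1 or 2 of Elf4-/- EtOH changed the latter to −1.24 or −4.26. Mup20, which encodes darcin, was at 3856 and 4627 CPM in WT-Control and at 535 and 450 in WT-EtOH. Elf4-/- mice had 3841 and 4532 CPM under Control and 182 and 867 under EtOH. Its Control levels were close in both genotypes, and the lower of the Elf4-/- EtOH values again came from replicate 1. The log2 fold change was −3.11 ± 0.59 (SE) in WT and −3.0 ± 0.59 in Elf4-/-, and −2.27 or −4.55 in the latter without replicate 1 or 2 of Elf4-/- EtOH.

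Mup21, the third of the diverged coding members, was at 462 and 565 CPM in WT-Control and at 12.3 and 2.65 in WT-EtOH. It was at 262 and 257 CPM in Elf4-/- Control and at 0.956 and 14.7 in Elf4-/- EtOH. Although its coding sequence is the closest to that of Mup3, its difference between diets was larger, with a log2 fold change of −6.13 ± 0.96 (SE) in WT against −2.10 for Mup3. Without WT-EtOH replicate 1 or 2 the WT value was −7.59 or −5.39. In Elf4-/- it was −5.02 ± 0.92, and −4.14 or −8.08 without replicate 1 or 2 of Elf4-/- EtOH. Both genes rest fully on windows found in no other gene.

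Mup7 showed the largest fitted difference among the coding members. It was at 1544 and 4183 CPM in WT-Control and at 30.3 and 7.03 in WT-EtOH. In Elf4-/- mice it was at 1855 and 4014 CPM under Control and at 5.90 and 23.0 under EtOH. By rank of counts within a library, Mup7 stood at 21 to 72 among all genes in the Control libraries and at 3988 to 9611 in the EtOH libraries. The log2 fold change was −7.27 ± 0.98 (SE) in WT and −7.66 ± 1.0 in Elf4-/-, and −7.00 or −8.97 in the latter without replicate 1 or 2 of Elf4-/- EtOH. In WT it ran from −8.66 without WT-EtOH replicate 1 to −6.38 without WT-Control replicate 2.

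Mup17, the near-identical copy with the largest share of windows of its own in that set, was at 1640 and 5436 CPM in WT-Control and at 231 and 87.5 in WT-EtOH. It was at 1043 and 2879 CPM in Elf4-/- Control and at 92.1 and 65.8 in Elf4-/- EtOH. Here replicate 1 of Elf4-/- EtOH was the higher one, unlike for Mup3, Mup20 and Mup21, and the log2 fold change was −4.47 ± 0.73 (SE) in WT and −4.63 ± 0.74 in Elf4-/-. It ran from −5.33 without WT-EtOH replicate 1 to −3.36 without WT-Control replicate 2 in WT, and from −5.19 to −3.72 without Elf4-/- Control replicate 1 and 2 in Elf4-/- mice. Mup11 was at 2262 and 3392 CPM in WT-Control and at 85.6 and 37.7 in WT-EtOH. Its Elf4-/- values were 892 and 2043 CPM under Control and 19.1 and 132 under EtOH. The log2 fold change was −5.52 ± 0.88 (SE) in WT and −4.27 ± 0.83 in Elf4-/-, and −3.47 or −6.28 in the latter without replicate 1 or 2 of Elf4-/- EtOH. With any 1 WT library left out, the WT value ran from −6.23 to −5.05.

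The 3 remaining coding copies were counted at far lower levels, although how reads shared with other copies were treated is not stated. Mup12 was at 28.0 and 87.8 CPM under Control and 2.78 and 1.22 under EtOH in WT, and at 43.7 and 85.0 against 0.797 and 3.05 CPM in Elf4-/- mice. Mup1 was at 28.2 and 39.7 CPM under Control and 2.15 and 0.917 under EtOH in WT, and at 18.9 and 39.7 against 0.638 and 1.59 CPM in Elf4-/- mice. These genes had log2 fold changes between −4.49 and −5.00 in both genotypes, and their EtOH values rested on 4 to 23 counts per library. With 1 library left out, Mup12 ran from −5.54 to −3.83 in WT (without WT-EtOH replicate 1 and WT-Control replicate 2) and from −6.31 to −4.38 in Elf4-/- (without Elf4-/- EtOH replicate 2 and 1). Mup1 ran from −5.19 to −3.98 in WT (without WT-EtOH replicate 1 and 2) and from −5.49 to −4.02 in Elf4-/- (without Elf4-/- EtOH replicate 2 and Elf4-/- Control replicate 2). Mup2 was at 11.7 and 16.6 CPM under Control and 6.57 and 1.83 under EtOH in WT, and at 7.17 and 9.99 against 2.87 and 3.58 CPM in Elf4-/- mice. It showed the smallest difference among the members, with a log2 fold change of −1.78 ± 0.50 (SE) in WT and −1.39 ± 0.52 in Elf4-/-. Its WT value was −2.94 without WT-EtOH replicate 1 and −1.11 without WT-EtOH replicate 2.

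Mup-ps20 was counted mostly in a single library. It had 12 and 359 counts under Control and 1 and 0 under EtOH in WT, and 24 and 37 against 0 and 0 counts in Elf4-/- mice. In WT the ratio of Control to EtOH was 609-fold, with a 95% counting interval (exact binomial) of 109 to 24114. Without WT-Control replicate 2 it was 39.7-fold (5.87 to 1695). In Elf4-/- mice the level was at least 17.1-fold lower under EtOH, computed against a floor of 3 counts over the group, and at least 25.4-fold and 11.3-fold lower without Elf4-/- Control replicate 1 and replicate 2. Mup-ps20 lies on the same strand as Mup20, next to it in the cluster, and its Control levels did not follow those of Mup20, which were even across the 4 Control libraries.

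**Figure D3:**
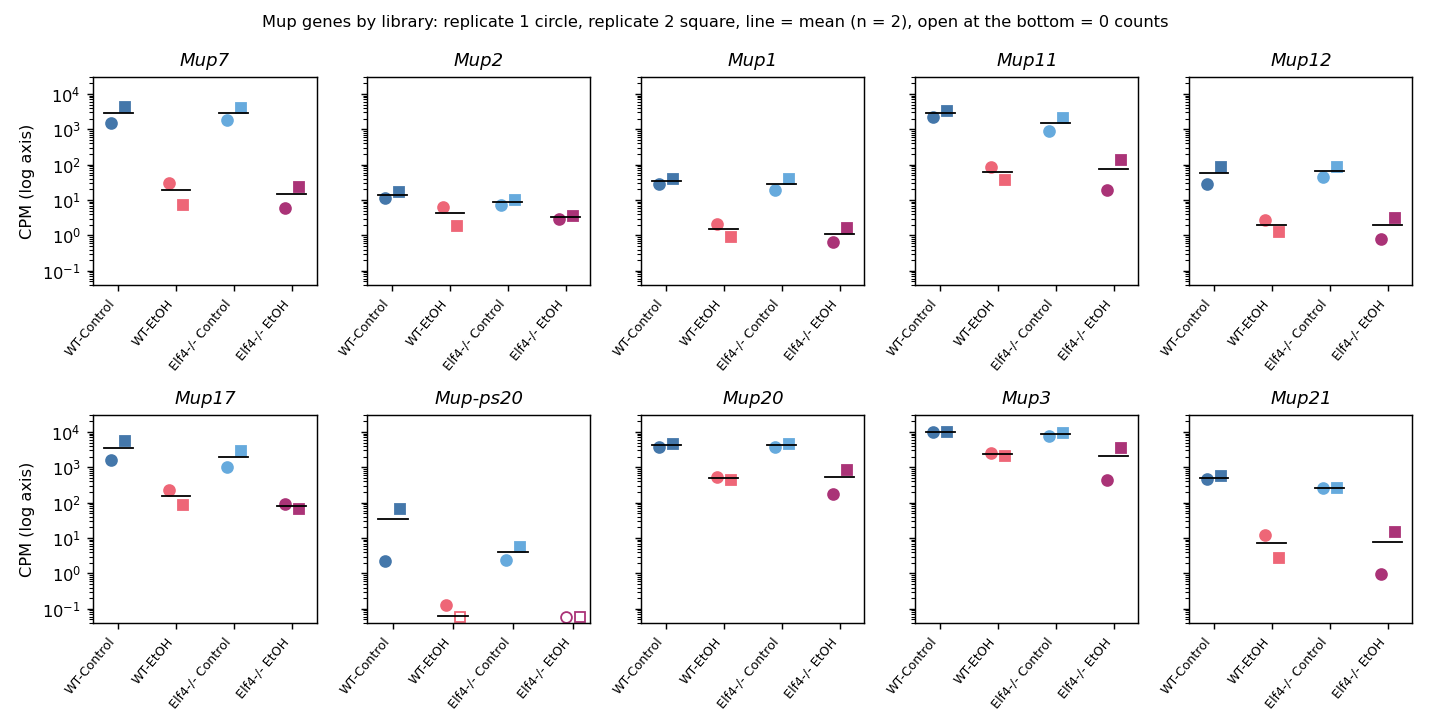
Level of each member in CPM (log axis) in the 8 libraries, by group. Circles are replicate 1, squares replicate 2, lines the mean of n = 2, and open symbols at the bottom mark 0 counts. All 10 members lie lower in the EtOH groups of both genotypes, and the Elf4-/- EtOH replicates of Mup3, at 449 and 3614 CPM, lie far apart.

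**Figure D4:**
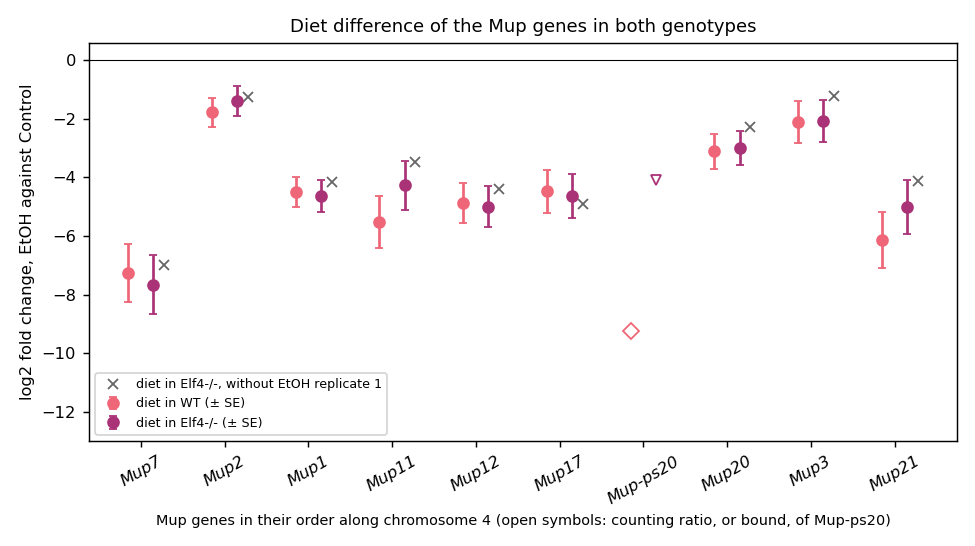
Log2 fold change of EtOH against Control for each member, in WT and Elf4-/- mice, with SE bars, in the order along chromosome 4. Crosses give the Elf4-/- value without Elf4-/- EtOH replicate 1, the open diamond the counting ratio of Mup-ps20 in WT and the open triangle its lower bound in Elf4-/-. Values range from −1.78 (Mup2) to −7.27 (Mup7) among coding members in WT.

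Members of the near-identical set thus differed from −1.78 (Mup2) to −7.27 (Mup7) in WT, and the diverged members from −2.10 (Mup3) to −6.13 (Mup21), so that both sets spanned small and large differences. Members that follow each other along the chromosome differed widely in some cases, such as Mup7 and Mup2 or Mup3 and Mup21. They differed little in others, such as Mup1, Mup11, Mup12 and Mup17 (−4.49, −5.52, −4.88 and −4.47 in WT). Other coding Mup rows lie between these last genes, with WT values from −0.30 (Mup22) to −4.32 (Mup16). Because members responded unequally, the make-up of the family shifted. Mup3 made up 47.8% and 31.6% of Mup counts under Control and 67.3% and 73.0% under EtOH in WT. In Elf4-/- mice it made up 45.9% and 37.7% under Control and 48.0% and 73.5% under EtOH, the lowest of the EtOH values being in replicate 1. Mup20 held a steadier part, between 14.3% and 23.4% in all 8 libraries. Mup7 held 7.59% to 15.9% of Mup counts in the Control libraries and 0.244% to 0.809% in the EtOH libraries.

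To compare levels between genes, CPM was divided by exon length in kb (RPKM). The order among the near-identical copies is uncertain, because the treatment of reads with several possible genes is not stated. In WT-Control, Mup3 stood first at 9312 ± 285 RPKM (SD, n = 2), above Mup20 at 4570 ± 588. Mup17 (3817 ± 2896), Mup7 (2772 ± 1806) and Mup11 (1794 ± 507) followed with replicate ranges that overlapped from each to the next, and Mup20 overlapped Mup17 too. Mup21 stood below them at 759 ± 107 RPKM. Mup-ps20 and Mup12 were at 87.8 ± 116 and 62.5 ± 45.7 RPKM with overlapping ranges, and Mup1 and Mup2 had the lowest means, 21.4 ± 5.17 and 10.6 ± 2.55. The lower Mup-ps20 replicate, at 5.75 RPKM, lay below both of these. Elf4-/- Control had the same first pair, Mup3 at 7977 ± 1319 and Mup20 at 4511 ± 527 RPKM, with no overlap between them. In WT-EtOH, Mup3 (2167 ± 276), Mup20 (531 ± 64.5) and Mup17 (172 ± 109) came first with no overlap from one to the next, and the 6 genes from Mup11 to Mup1 followed at 39.1 ± 21.5 to 0.968 ± 0.550, each from Mup7 on overlapping the gene above it. In Elf4-/- EtOH the order was the same, but Mup3 (1902 ± 2096) overlapped Mup20 (565 ± 522), and Mup17 (85.2 ± 20.1) overlapped Mup11 (48.1 ± 50.8).

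The other 28 Mup rows of the table are 11 protein-coding genes and 17 pseudogenes, and 23 of them passed the filter on low counts. In WT, 18 of the 23 were lower in both EtOH libraries than in both Control libraries, against 32.7% of all genes tested. In Elf4-/- mice 16 of the 23 were, against 26.3% of all genes, and 3 had a higher fitted level with EtOH. The median log2 fold changes of the 23 were −2.70 and −2.27. They share reads with the members and the diets, so they are described only. Mup14, the most abundant of them, was at 342 and 1773 CPM under Control and 125 and 60.2 under EtOH in WT, and at 529 and 995 against 10.7 and 45.2 CPM in Elf4-/- mice. Its log2 fold change was −3.51 ± 0.84 (SE) in WT and −4.76 ± 0.89 in Elf4-/-. Mup22 was among the exceptions. It was at 20.3 and 52.8 CPM under Control and 27.8 and 31.5 under EtOH in WT, and at 28.9 and 52.4 against 40.6 and 54.0 CPM in Elf4-/- mice, so that the diets overlapped in both genotypes. No 150-base window of the Mup22 transcript is found in that gene alone (0%), so a single read of it cannot be told from reads of other copies. Mup-ps13, with 87.6% of windows of its own, was at 49.4 and 88.9 CPM under Control and 21.5 and 18.2 under EtOH in WT, and at 53.5 and 51.0 against 34.7 and 30.8 CPM in Elf4-/- mice. Its groups did not overlap between diets, but its log2 fold change of −1.80 ± 0.27 (SE) in WT and −0.67 ± 0.26 in Elf4-/- was smaller than the member median.

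The genotype comparisons asked whether loss of intestinal Elf4 went with other Mup levels. They were tested because the members were chosen on diet differences, although the same libraries entered that choice. Under Control diet, 0 of the 10 members passed the threshold (quasi-likelihood test in edgeR, adjusted p under 0.05 over all genes), where 0.0143% of all genes did. Log2 fold changes of Elf4-/- against WT ran from −0.99 (Mup21) to 0.15 (Mup12) among the 9 coding members, with a smallest adjusted p of 0.804 (edgeR). Mup-ps20 was lower in Elf4-/- Control, with a log2 fold change of −3.13 ± 1.11 (SE) and an edgeR unadjusted p of 0.0197, the only member with an unadjusted p under 0.05. Its adjusted p was 0.585, and without WT-Control replicate 2 the value was 0.82. Mup21 (−0.99 ± 0.76, SE), Mup11 (−0.95 ± 0.73), Mup2 (−0.73 ± 0.47) and Mup3 (−0.22 ± 0.69) lay lower in both Elf4-/- Control libraries than in both WT-Control libraries, as 18.5% of all genes did. The family sum differed by −0.33 ± 0.63 (SE, edgeR adjusted p = 0.956), and by 0.04 without WT-Control replicate 2.

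Under EtOH diet, 0 of the 10 members passed either (edgeR, smallest adjusted p 0.641), where 0.143% of all genes did, and 0 had an unadjusted p under 0.05. The 9 coding members ran from −1.01 ± 0.65 (SE, Mup17) to 0.30 ± 0.74 (Mup11). Mup-ps20 was at or under the floor in both EtOH groups, and no fold is given. The family sum differed by −0.18 ± 0.63 (SE, edgeR adjusted p = 0.959). These comparisons rested on Elf4-/- EtOH replicates that were far apart, and 8 of the 10 members were lower in replicate 1 than in replicate 2. A fit without Elf4-/- EtOH replicate 2 leaves replicate 1 alone and assumes that it varies like the other groups. It put Mup3 at −2.37 and Mup20 at −1.45. Without replicate 1, Mup3 was at 0.65 and Mup20 at 0.82, so the sign of both depended on which replicate was left out. DESeq2 called 0 of the 10 members in both genotype comparisons.

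The interaction, which is the diet difference in Elf4-/- mice minus that in WT, shares its libraries with the contrasts that chose the members. It passed for 0 of the 10 members in edgeR, with 0 at an unadjusted p under 0.05, and for 0 in DESeq2. Over all genes, 0% passed in edgeR. Mup11 (1.25 ± 1.04, SE) and Mup21 (1.11 ± 1.14) had the largest values among the coding members, toward a smaller difference between diets in Elf4-/- mice, with adjusted p of 0.737 and 0.791 (edgeR). Mup3 was at 0.04 ± 0.97 and Mup20 at 0.11 ± 0.78. The family sum was at 0.15 ± 0.88 (SE, edgeR adjusted p = 0.969), and its sign turned under several settings. With each library left out in turn, the interaction of Mup3 ran from −2.15 to 0.87, the lowest value being without Elf4-/- EtOH replicate 2. Of the 23 other Mup rows tested, 0 passed in either genotype comparison or the interaction (edgeR). An unadjusted edgeR p under 0.05 was held by 3, 5 and 4 of them, and by 1023, 1470 and 1411 of all 13993 genes.

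The growth hormone axis, the best known input of the family, was read next, gene by gene and with a test of the diets, since the rule for the members did not use these genes. Of 20 genes, 3 rose and 1 fell in WT, and 0 rose and 1 fell in Elf4-/- (edgeR quasi-likelihood test, adjusted p under 0.05). Over all genes, 10.8% rose and 10.8% fell in WT, and 1.71% rose and 1.18% fell in Elf4-/-. The median log2 fold change of the list was 0.03 in WT and −0.03 in Elf4-/-, against 0.01 for all genes. The receptor Ghr was at 351 and 382 CPM under Control and 314 and 322 under EtOH in WT (log2 fold change −0.21 ± 0.26, SE), and at −0.49 ± 0.26 in Elf4-/-. Jak2, its kinase, was at −0.06 ± 0.26 in WT, and Stat5b, the factor it activates, at −0.66 ± 0.26 in WT and −0.22 ± 0.26 in Elf4-/-, none past the threshold (edgeR, smallest adjusted p 0.0932). Bcl6, a repressor that counters Stat5 and is higher in male liver, fell from 218 and 184 CPM to 23.6 and 14.0 in WT and from 162 and 190 to 57.5 and 25.7 in Elf4-/- (log2 fold change −3.42 and −2.08, edgeR adjusted p = 0.00147 and 0.0254). In WT, Cux2, a factor of the female liver, rose by 4.71 ± 1.32 (SE, edgeR adjusted p = 0.032), Igfbp3, a carrier of Igf1, by 1.61 ± 0.39 (edgeR adjusted p = 0.0179), and Socs2, a feedback inhibitor, by 1.0 ± 0.32 (edgeR adjusted p = 0.0488).

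Among the remaining regulators, the targets Igf1 and Cish were at −1.08 ± 0.46 (SE) and 2.81 ± 0.93 in WT and at −0.60 ± 0.46 and 1.89 ± 0.77 in Elf4-/-. The hepatocyte factor gene Hnf4a was at −0.48 ± 0.24 in WT and 0.11 ± 0.24 in Elf4-/-. Zhx2, a factor known to bear on Mup levels in adult liver, was at 1.16 ± 0.41 in WT and −0.17 ± 0.38 in Elf4-/-. None of these 4 passed the threshold (edgeR, smallest adjusted p 0.0551). The number of calls in the list depended on single libraries. With 1 library left out it fell or rose in both genotypes, as did the number over all genes.

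Genes known to be higher in male liver, other than Mup genes, were mostly lower with EtOH. Of 17 tested of 18, 12 fell and 1 rose in WT, and 8 fell and 0 rose in Elf4-/- (edgeR, adjusted p under 0.05), with medians of −2.18 and −1.98. Over all genes, 10.8% fell and 10.8% rose in WT, and 1.18% fell and 1.71% rose in Elf4-/-. The steroid enzyme gene Hsd3b5 fell from 96.6 and 197 CPM to 1.26 and 1.12 in WT and from 99.3 and 112 to 0 and 1.59 in Elf4-/- (edgeR adjusted p = 0.000641 and 0.00197). Serpina1e, a male-biased protease inhibitor, fell by 5.42 and 4.50 on the log2 scale (edgeR adjusted p = 0.00387 and 0.0276), and the transporter Slco1a1 by 2.11 and 2.29 (edgeR adjusted p = 0.00817 and 0.0273). Ugt2b1, a glucuronosyltransferase, was the gene that rose, by 0.74 in WT (edgeR adjusted p = 0.049). With 1 library left out, the number of calls in the list fell or rose in both genotypes, as did the number over all genes. Of 12 female-biased genes tested of 18, 8 rose and 0 fell in WT, and 5 rose and 0 fell in Elf4-/-, with medians of 2.64 and 3.42. DESeq2 called 8 of them in Elf4-/-. The number of calls in this list moved with 1 library left out too, in both genotypes. Cyp2b9, a cytochrome P450 of female liver, rose from 0.932 and 0.920 CPM to 161 and 296 in WT and from 1.33 and 0.447 to 387 and 188 in Elf4-/- (edgeR adjusted p = 0.000316 and 0.000714).

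Other secreted liver products were compared with the Mup genes to see whether abundant export proteins shared their difference. Of 24 plasma protein genes, 0 rose and 1 fell in WT, and 0 passed in Elf4-/- (edgeR, 7 and 1 at an unadjusted p under 0.05), with medians of −0.17 and 0.01. The one that fell was Apoa1, the main protein of high-density lipoprotein, by 2.34 ± 0.42 (SE) on the log2 scale in WT (edgeR adjusted p = 0.00592), and it did not pass without WT-EtOH replicate 2. Alb, albumin, was at 31654 and 40351 CPM under Control and 25234 and 21676 under EtOH in WT (−0.62 ± 0.38, SE), and Ttr, the carrier transthyretin, at −0.13 ± 0.35. DESeq2 called 7 of the 24 in WT, 6 of them lower, and 1 in Elf4-/-. Over all genes, edgeR called 10.8% higher and 10.8% lower in WT, and 1.71% higher and 1.18% lower in Elf4-/-. Of 9 other lipocalin genes tested of 10, 1 rose and 1 fell in WT and 0 passed in Elf4-/- (edgeR), where 3 had an unadjusted p under 0.05 and DESeq2 called 3. Rbp4, the retinol carrier of plasma, rose by 0.99 (edgeR adjusted p = 0.0457) and the prostaglandin synthase gene Ptgds fell by 3.67 (edgeR adjusted p = 0.00348) in WT.

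Genes beside the cluster were read in the same way. Of 30 protein-coding genes within 1 Mb of either side, 24 were in the table and 20 were tested. In WT, 3 rose and 1 fell, and in Elf4-/- 1 rose and 0 fell (edgeR, adjusted p under 0.05), with medians of 0.31 and 0.19. Over all genes, 10.8% rose and 10.8% fell in WT, and 1.71% rose and 1.18% fell in Elf4-/-. Hsdl2, a peroxisomal dehydrogenase-like gene, rose from 44.4 and 27.2 CPM to 92.3 and 104 in WT and from 37.0 and 39.5 to 98.5 and 79.1 in Elf4-/- (edgeR adjusted p = 0.00471 and 0.0339). Ptbp3 and Cdc26 rose by 1.01 and 0.77 in WT, and Fkbp15 fell by 0.58. The number of flanking genes called fell or rose with 1 library left out in both genotypes, as did the number over all genes.

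**Figure D5:**
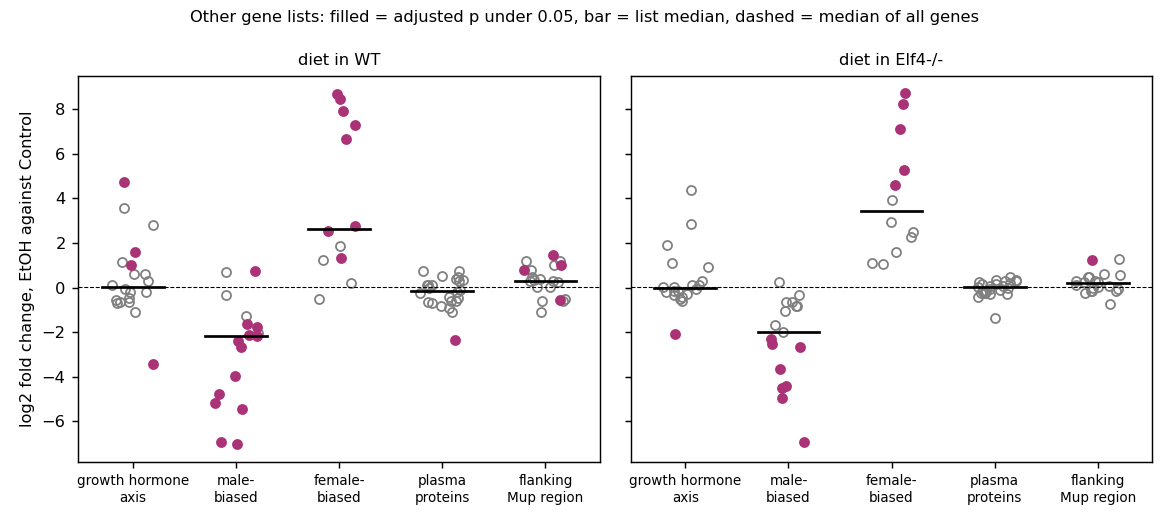
Log2 fold change of EtOH against Control for each tested gene of 5 lists without Mup genes, in WT (left) and Elf4-/- mice (right). Filled points passed an adjusted p under 0.05 (edgeR), bars are list medians and the dashed line is the median of all genes. Male-biased genes lie mostly below 0 (medians −2.18 and −1.98) and female-biased genes above it, while the medians of the plasma protein list, −0.17 and 0.01, lie near 0.

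The 5 genes outside the family whose log2 CPM was most like that of the Mup sum over the 8 libraries, among 9376 genes that averaged 50 counts or more, were BC024386, Gnb2, 1600014C10Rik, Nox4 and Rnf152, with Pearson's r of 0.993, 0.990, 0.990, 0.985 and 0.985. The libraries form separate diet sets, so r mostly carries the difference between diets and has no test. BC024386 was at 1367 and 1525 CPM under Control and 491 and 478 under EtOH in WT, and at 1153 and 1341 against 288 and 711 CPM in Elf4-/- mice. As in the Mup sum, its lowest library was Elf4-/- EtOH replicate 1. Among the members, r with the sum ran from 0.860 for Mup-ps20 and 0.863 for Mup2 to 0.991 for Mup20.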

How the data were processed

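Liver RNA of 8 libraries in 4 groups was analysed. Per the labels and the study's methods, the authors mapped 150-base paired-end reads to mm10 with HISAT2, used SAMtools for the alignments and HTSeq for gene counting. Strand setting, annotation and treatment of reads with several matches were not given in the sources used here. The deposited table holds whole-number counts per gene symbol, not normalized. Blank rows (968) were left out. Positions came from GENCODE M21 (GRCm38), promoters from RefSeq (GRCm38.p6).

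After filterByExpr, 13993 genes entered 1 model of 4 groups in edgeR 4.0.16 (R 4.3.3), with TMM factors, the quasi-likelihood test, Benjamini-Hochberg adjustment over all genes and a threshold of 0.05. A prior count of 2 entered log2 CPM. All 33 Mup rows that passed, and the 38 rows summed, were fitted. Alternatives were DESeq2 1.42.0, other scalings and filters, a replicate block, the 4 libraries of a contrast and leaving out each library. Counts were simulated for the genotype comparison under EtOH (13130 genes), with the same spread for every gene and group, unlike these libraries. Of 50 genes each changed by 2, 4, 8 and 16 fold, edgeR recovered 13, 46, 50 and 50, with 4 false calls. This does not show how large a difference could be missed among the Mup genes.

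The members, gene lists and tests were chosen with earlier results of these data known. Named genes were the members, other Mup rows, list genes led by those past the threshold and by regulators, and the 5 genes most like the Mup sum. A regulator of the growth hormone list and a promoter motif that was searched are not reported here.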

Additional observations from a re-analysis of the deposited data

How the results depend on the processing

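The diet differences of all 10 members kept their sign under every alternative. The family sum in WT moved to −2.56 with scaling by library totals, chosen after seeing the data, which shifts the median of all genes in that contrast from 0.01 to 0.44, and ran from −3.28 to −2.62 with 1 library left out (−4.49 to −2.08 in Elf4-/-). Its interaction turned to −0.25 under that scaling and −0.20 with a replicate block, and ran from −1.50 to 0.90 with 1 library left out. Its genotype difference ran from −0.68 to 0.041 under Control and from −1.83 to 0.57 under EtOH. Same-numbered replicates correlated at −0.11 to 0.06 over genes in their deviations from group means. They thus shared no strong shift, but this cannot exclude that the numbers pair libraries. The replicate block turned no member past the threshold, and it turned the sign of Mup11 (−0.18), Mup12 (−0.14), Mup20 (−0.14) and Mup21 (−0.0062) under EtOH and of Mup3 (−0.26) and Mup20 (−0.12) in the interaction. Library totals turned the sign of Mup20 (0.20) under Control, of Mup12 (−0.19), Mup20 (−0.11) and Mup21 (−0.058) under EtOH, and of Mup2 (−0.051), Mup3 (−0.38) and Mup20 (−0.31) in the interaction. Mup20 under Control was also at 0.016 without a filter, and Mup12 under EtOH at −0.039 in DESeq2 and −0.0025 in a fit of 4 libraries.

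Members whose value turned sign with 1 library left out, with their range over the 8 libraries, follow. For genotype under Control these ranges were −0.84 to 0.23 (Mup1), −0.62 to 0.93 (Mup7), −0.45 to 1.21 (Mup12), −1.76 to 0.27 (Mup17), −0.14 to 0.13 (Mup20), −4.08 to 0.82 (Mup-ps20). For genotype under EtOH these ranges were −1.20 to 0.31 (Mup1), −1.02 to 0.81 (Mup2), −2.37 to 0.65 (Mup3), −1.65 to 1.04 (Mup7), −1.69 to 1.11 (Mup11), −1.27 to 0.69 (Mup12), −1.45 to 0.82 (Mup20), −2.91 to 1.58 (Mup21). Mup-ps20, at or under the floor in both EtOH groups, had fitted values from −3.01 to 0 there, which are no folds. For the interaction these ranges were −0.98 to 0.53 (Mup1), −0.30 to 1.53 (Mup2), −2.15 to 0.87 (Mup3), −1.70 to 1.0 (Mup7), −0.75 to 2.05 (Mup11), −1.43 to 0.53 (Mup12), −1.27 to 0.75 (Mup17), −1.43 to 0.84 (Mup20), −1.93 to 2.56 (Mup21), −2.98 to 3.12 (Mup-ps20).

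With library totals, the calls were 7 of the growth hormone list, 6 of the plasma proteins and 11 of the flanking genes in WT. Over all genes, that scaling called 3422 higher and 634 lower in WT, against 1518 and 1507 in the main fit. In a fit of only 4 libraries the calls were 7 of the growth hormone list and 7 flanking genes in WT. In Elf4-/- that fit called 0 of the growth hormone list, 3 male-biased and 0 flanking. DESeq2 called 2 of the growth hormone list in Elf4-/- (also 2 without a filter), 7 and 1 plasma proteins in WT and Elf4-/-, and 2 flanking genes in WT. The cause was not tested. Without 1 library, calls in WT and Elf4-/- ran from 1 to 11 and 0 to 5 (growth hormone list), 6 to 16 and 1 to 11 (male-biased), 2 to 8 and 0 to 2 (flanking), and 0 to 4 in WT (plasma proteins). Members called ran from 0 to 2 under EtOH and from 0 to 1 in the interaction. The Mup share was 3.14% in WT-Control and 2.55% in Elf4-/- Control without mitochondrial genes. Over all genes, DESeq2 called 78, 182, 811 and 107 for genotype under Control, genotype under EtOH, diet in Elf4-/- and the interaction, against 2, 20, 404 and 0 in edgeR. For diet in WT, DESeq2 called fewer, 2809 against 3025 in edgeR. A single library left in a group is assumed to vary like the others.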
